A study of Mus musculus with 4 samples.

Results

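Most mitochondrial proteins are encoded in the nucleus, made in the cytosol and carried into the organelle by a set of membrane translocases. The TOM complex is the general entry gate of the outer membrane, and the SAM complex builds barrel proteins into that membrane. Small TIM chaperones escort hydrophobic precursors across the intermembrane space. At the inner membrane, the TIM22 translocase receives carrier precursors and the TIM23 translocase receives presequence proteins. An ATP-driven motor then pulls presequence proteins into the matrix, where peptidases trim them. The transcription of the genes for this machinery was examined in mouse embryonic stem (mES) cells before and after removal of the zinc-finger protein Zfp574. The set held every gene whose symbol starts with Timm or Tomm together with 15 further named import genes, which gave 40 genes of the 12486 in the count table.

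In the cell line, Zfp574 carries an N-terminal auxin-inducible degron (AID), a tag that marks the protein for destruction once auxin (indole-3-acetic acid, IAA) is given, and the parental line expresses the plant F-box protein OsTir1 that this needs. The tag and the OsTir1 transgene, driven by the EF1a promoter, were shared by the 2 groups, which were control cells at 0 h without IAA (2 libraries) and cells depleted for 6 h with 500 µM IAA (2 libraries). Knock-in cells were genotyped as individual clones, and whether the libraries of a group came from 1 clone is not given in the sources used here. Every depletion library received auxin and no control did, so that loss of Zfp574 and auxin itself cannot be told apart. Precision run-on sequencing (PRO-seq) maps the last base of nascent RNA, and a count per gene therefore reports engaged RNA polymerase and not mature mRNA.

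Column totals ran from 3298864 to 3616429 counts in the control libraries and from 5670904 to 6045216 in the depletion libraries. The import genes took between 0.257% and 0.272% of them. Stem cell markers were present, with 9 of 10 listed genes in the table, Pou5f1, Sox2 and Nanog among them, and summed levels between 4152 and 4277 CPM (counts scaled by TMM to a common library size) in all libraries, most of it from Esrrb and Tfcp2l1. One of the listed stem cell genes, Utf1, fell from 38.8 and 46.9 CPM to 28.9 and 27.4 CPM, a log2 fold change of -0.61 (adjusted p 0.00358 in edgeR), and its part in the results was not tested. Of 15 listed markers of other cell types, 7 were in the table and had at least 14 counts over the 4 libraries. They were the neural markers Nes, Sox1 and Pax6 with Eomes, Sox17, Foxa2 and Thy1. Nes had 34.9 and 37.4 CPM in the controls and 42.2 and 40.0 CPM after depletion. Sox1 had 25.8 and 23.7 CPM against 25.9 and 25.6 CPM. Pax6 had 5.71 and 10.9 CPM against 11.8 and 13.2 CPM, a log2 fold change of 0.56 (adjusted p 0.224 in edgeR). Cdx2, Elf5, Gata4, Gata6, T, Mixl1, Col1a1 and Col1a2 were not in the table. The summed level of the 7 markers present was 75.4 to 85.2 CPM in the control libraries and 89.5 to 92.4 CPM after depletion, and their part in the results was not tested. Counts of Zfp574 itself check nothing here because the degron acts on the protein. Its log2 fold change (log2FC, depletion over control throughout) was 0.25, at an adjusted p of 0.406 in edgeR.

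After depletion, 2 of the 40 import genes, Timm10 and Tomm22, were transcribed at a lower level, and none rose past the test. Timm10 encodes a small TIM chaperone of the intermembrane space, and Tomm22 encodes a central receptor of the TOM complex. Calls came from the quasi-likelihood test of edgeR, adjusted by Benjamini-Hochberg over all 11853 genes tested. An adjusted p under 0.05 was reached in the lower direction by 1.40% of all genes and in the higher direction by 1.11%. With a change of at least 2-fold as well, the same 2 import genes were called lower, against 0.321% of all genes, and 0 were called higher, against 0.00%. At an unadjusted p under 0.05, 8 of the 40 import genes were lower, against 7.66% of all genes, and 2 were higher, against 8.53%, none of the latter by 2-fold. DESeq2 called 1 import gene lower, Timm10, against 0.515% of all genes, and none higher, against 0.118%. With limma-voom, Timm10 and Tomm22 were called lower, against 1.43% of all genes, and none was called higher, against 1.27%. In a bulk sample, fewer cells of one kind and less RNA per cell cannot be told apart.

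All 40 genes passed the filter on low counts, and they are drawn by role in the plot of fold changes.

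**Figure D1:**
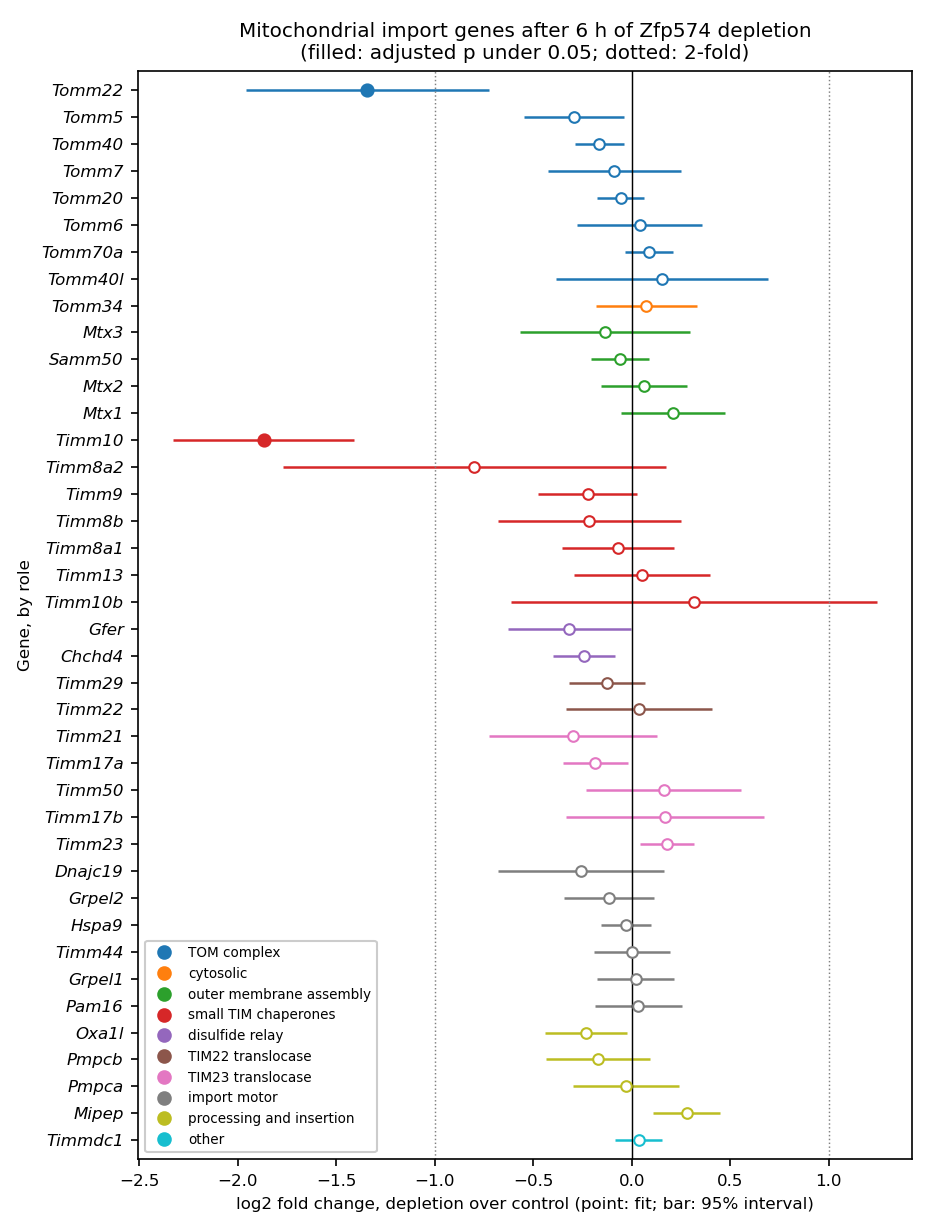
Log2 fold change, depletion over control, of each of the 40 import genes, ordered by role on the vertical axis. Points are the edgeR fit, bars its 95% interval, filled points have an adjusted p under 0.05 and dotted lines mark a 2-fold change. Timm10 at -1.87 and Tomm22 at -1.34 lie apart from the other 38 genes, of which 36 have an interval that stays within 2-fold in both directions.

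Timm10 (ENSMUSG00000027076, chr2:84826997-84830213, plus strand, mm10) was counted 54 and 59 times in the control libraries, against 24 and 27 times in the deeper depletion libraries. Scaled to library size, these were 16.2 and 16.1 CPM against 4.03 and 4.81 CPM, so that the depletion libraries lay far below the controls. The mean fell from 16.2 ± 0.0888 CPM (SD, n = 2) to 4.42 ± 0.547 CPM, or 27.3% of the control level. With 164 counts over the 4 libraries, an SD from 2 libraries may understate the spread. The log2FC of -1.87 (standard error, SE, 0.22) had a 95% interval from -2.33 to -1.41 and an edgeR adjusted p of 3.36e-06. Of all genes tested, 14 had a lower fold change, which placed Timm10 at rank 15. Its call was kept in DESeq2, where the adjusted p was 0.000291, and without each library in turn, where the log2FC ranged from -1.99 to -1.74.

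Tomm22 (ENSMUSG00000022427, chr15:79670861-79673400, plus strand, mm10) was counted 36 and 24 times in the controls, against 18 and 21 times after depletion. These were 10.8 and 6.55 CPM against 3.02 and 3.74 CPM. The groups did not overlap, although the control libraries differed from each other by more than the lower of them differed from the depletion libraries. The mean was 8.68 ± 3.02 CPM (SD, n = 2) before and 3.38 ± 0.505 CPM after depletion, or 38.9% of the control level. The log2FC of -1.34 (SE 0.30) had a 95% interval from -1.96 to -0.73 and an edgeR adjusted p of 0.0106. This call rested on few counts. The call was kept in limma-voom and under the 3 other scalings of the libraries. In DESeq2 the adjusted p was 0.445 at a log2FC of -1.36. In edgeR it was 0.248 without control replicate 1, 0.176 without depletion replicate 1 and 0.0590 without depletion replicate 2. Over all 4 fits that left out a library the log2FC ranged from -1.68 to -0.95.

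**Figure D2:**
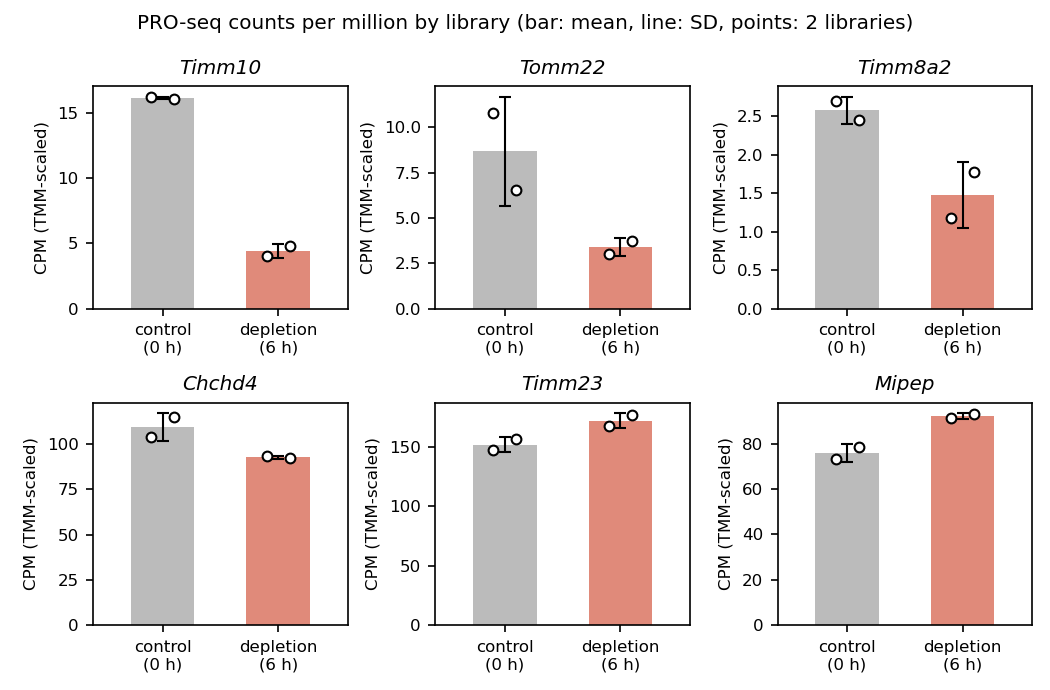
TMM-scaled CPM (linear axis from 0) of 6 import genes in the control (grey) and depletion (red) libraries. Bars are means, lines the SD and points the 2 libraries of each group. Timm10 falls from 16.2 to 4.42 CPM with closely spaced replicates, the controls of Tomm22 differ at 10.8 and 6.55 CPM, Timm8a2 lies below 3 CPM throughout, and Chchd4, Timm23 and Mipep move by far less than 2-fold.

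To set the promoters of both lowered genes side by side, the bases before their most upstream annotated start are shown (RefSeq windows, GRCm38.p6, plus strand), for Timm10 chr2:84826771-84826996 and for Tomm22 chr15:79670618-79670860. Capitals mark runs of 10 letters that the full windows of both genes share on either strand, and no longer run was shared. In Timm10 the first and the second run overlap.
Timm10: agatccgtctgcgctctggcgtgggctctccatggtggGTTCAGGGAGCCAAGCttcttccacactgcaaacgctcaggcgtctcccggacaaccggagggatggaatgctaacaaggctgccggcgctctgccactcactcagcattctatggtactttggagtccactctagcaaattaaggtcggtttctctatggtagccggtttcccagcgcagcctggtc
Tomm22: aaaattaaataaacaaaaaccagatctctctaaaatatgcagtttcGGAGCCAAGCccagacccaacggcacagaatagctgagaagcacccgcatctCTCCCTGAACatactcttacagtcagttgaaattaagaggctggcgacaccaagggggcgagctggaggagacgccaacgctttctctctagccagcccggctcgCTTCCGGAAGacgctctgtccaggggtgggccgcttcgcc

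Of the 3 shared runs, CTTCCGGAAG reads the same on both strands and contains CCGGAAG, the core letters of ETS factor sites. Its first base lay at -47 from the RefSeq start of Tomm22, and 13 bases downstream of the RefSeq start of Timm10. Among import genes it was found in 1 more window, that of Timmdc1, at -11. The stretches of 30 bases around it are shown because they compare both lowered genes with a member that was not called, at chr2:84827024-84827053 and chr15:79670811-79670840 on the plus strand and chr16:38522655-38522684 on the minus strand, with the shared letters in capitals.
Timm10: gctagacttcCTTCCGGAAGtgacccacgt
Tomm22: gcccggctcgCTTCCGGAAGacgctctgtc
Timmdc1: tttccgagagCTTCCGGAAGtgagccggct

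Timmdc1, which encodes an assembly factor of respiratory complex I, had 316 ± 14.7 CPM (SD, n = 2) before and 325 ± 19.5 CPM after depletion, and the most counts of the set, 5975 over the 4 libraries. Its log2FC was 0.04, with a 95% interval from -0.08 to 0.16 and an adjusted p of 0.821 in edgeR. The run CTTCCGGAAG occurred in 0.167% of the 32851 promoter windows of 300 bases, each reaching from 250 before to 50 after a start. Of 39 tested genes with the run, 3 were called lower by 2-fold, namely Timm10, Tomm22 and the zinc-finger gene Zkscan8, and the median log2FC of the 39 was -0.06. The run GTTCAGGGAG, which Tomm22 carries as CTCCCTGAAC on the strand shown, occurred in 10 tested genes and GGAGCCAAGC in 32, and in each case Timm10 and Tomm22 were the 2 called lower by 2-fold. These runs were picked after the fold changes were seen, because both genes share them, so the counts describe them and test nothing.

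Letters of known promoter motifs were counted in the 35 import genes with a window, on both strands. Hspa9, Grpel2, Timm21, Tomm7 and Tomm40l had no window. CCGGAAG was present in 16 of 35 genes, or 45.7%, against 20.8% of the tested genes with a window and 8.86% of all windows. The median log2FC of these 16 genes was -0.005, and only Timm10 and Tomm22 among them passed the test in edgeR. ATGGCGG, the YY1 core, was present in 9 genes, or 25.7% against 9.92%, and GGGCGGG, an Sp/KLF site, in 13 genes, or 37.1% against 53.2%. CCAAT was present in 10 genes, or 28.6% against 43.0%, CACGTG, an E-box, in 5, or 14.3% against 12.1%, and TATAAA in 3, or 8.57% against 8.40%. GCATGCG, the NRF1 core, was present in 2 genes, or 5.71% against 7.64%, and TGACGTC, the cyclic AMP response element, in 1, or 2.86% against 6.61%. Timm10 also held the E-box letters, while Tomm22 did not. These are matches of letters, and binding was not analysed here.

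In the outer membrane, Tomm22 was the 1 TOM gene of 8 that passed the test. Tomm20, the receptor for presequences, gave 872 and 910 control counts against 1461 and 1377 after depletion. These were 255 ± 9.68 and 245 ± 0.259 CPM (SD, n = 2), a log2FC of -0.06 (95% interval -0.18 to 0.06). Tomm70a, the receptor for carrier precursors, had 233 ± 9.98 and 247 ± 3.47 CPM, a log2FC of 0.09 (95% interval -0.03 to 0.21). The other receptors were thus measured closely, and neither changed past the test.

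Tomm40 forms the pore of the gate. It gave 720 and 806 control counts against 1128 and 1124 after depletion, or 216 and 220 CPM against 189 and 200 CPM. Both depletion libraries lay below both controls, but by little, and the log2FC of -0.16 had an adjusted p of 0.163 in edgeR. Tomm5, a small subunit next to the pore, gave 117 and 125 control counts against 174 and 153 after depletion, a log2FC of -0.29 (edgeR adjusted p 0.229). The small subunits Tomm6 and Tomm7 had log2FCs of 0.04 and -0.09, and Tomm40l had 0.15. Per kb of gene, Tomm40 stood 15.9 times above Tomm40l, its paralogue, in the controls. Tomm34, a cytosolic cochaperone, had 0.07. Summed over the 8 TOM genes, the level was 815 and 780 CPM in the controls and 763 and 771 CPM after depletion.

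Samm50, the core of the SAM complex, had 143 ± 0.593 CPM (SD, n = 2) before and 137 ± 12.1 CPM after depletion. Its partners Mtx1 and Mtx2 and the related Mtx3 had log2FCs of 0.21, 0.06 and -0.14. Mtx1 gave 89 and 100 control counts against 179 and 183 after depletion, or 26.7 and 27.3 CPM against 30.1 and 32.6 CPM. Both depletion libraries of Mtx1 lay above both controls, with an adjusted p of 0.448 in edgeR. None of the 4 genes passed the test.

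The small TIM chaperones work as hexamers, in which Timm9 pairs with Timm10, and Timm8a1 or Timm8b pairs with Timm13. Of the 7 genes, Timm10 alone passed the test, while 5 had a log2FC below 0 and the median was -0.21. Timm9, the partner of Timm10, gave 118 and 153 control counts against 208 and 176 after depletion. These were 38.6 ± 4.45 and 33.1 ± 2.56 CPM (SD, n = 2), a log2FC of -0.22 (95% interval -0.47 to 0.03). The interval of Timm9 and that of Timm10, from -2.33 to -1.41, did not overlap.

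Timm13 had 18.4 ± 4.09 CPM (SD, n = 2) before and 19.0 ± 0.287 CPM after depletion, a log2FC of 0.05. Its partners Timm8a1 and Timm8b had -0.07 and -0.21, both with intervals that spanned 0. Timm8a2, a copy of Timm8a1, and Timm10b, whose protein holds the chaperones at TIM22, had the fewest counts. Timm8a2 gave 9 and 9 control counts against 7 and 10 after depletion, a log2FC of -0.80 (95% interval -1.77 to 0.18) and an adjusted p of 0.434 in edgeR. Timm10b gave 9 and 6 control counts against 12 and 19 after depletion, the highest log2FC of the set at 0.32, with a 95% interval from -0.61 to 1.24. A 2-fold fall of Timm8a2 and a 2-fold rise of Timm10b lay within these intervals and were not excluded. Timm10b, Samm50 and Tomm6 were also the 3 members overlapped by another annotated gene on the same strand, where reads could be shared.

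Chchd4 and Gfer form the disulfide relay that folds small TIM proteins in the intermembrane space, Chchd4 as the oxidoreductase and Gfer as the oxidase that recharges it. Chchd4 gave 346 and 421 control counts against 555 and 518 after depletion, or 104 and 115 CPM against 93.2 and 92.2 CPM. The depletion pair lay below the control pair, with a log2FC of -0.24 (SE 0.08, edgeR adjusted p 0.0972). Gfer gave 76 and 83 control counts against 105 and 106 after depletion, a log2FC of -0.32 (SE 0.15, edgeR adjusted p 0.295). Neither passed the test with TMM scaling.

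**Figure D3:**
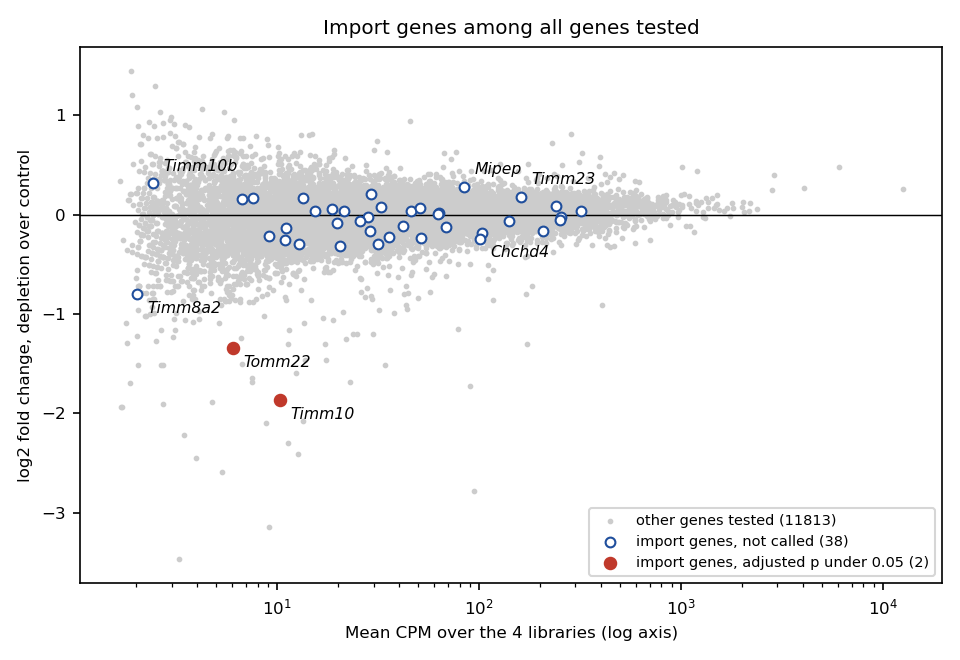
Log2 fold change against mean CPM (log axis) for all 11853 genes tested, with import genes as open blue points where they were not called and as red points where the adjusted p was under 0.05. Timm10 and Tomm22 sit below the cloud of genes of similar level, while the other 38 import genes lie between -0.80 and 0.32.

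At the inner membrane no gene of either translocase in the set passed the test. Timm23, the channel for presequence proteins, gave 490 and 573 control counts against 998 and 992 after depletion. These were 152 ± 6.46 and 172 ± 6.29 CPM (SD, n = 2), with both depletion libraries above both controls, a log2FC of 0.18 and an adjusted p of 0.156 in edgeR. Timm50, its receptor, had a log2FC of 0.16 and Timm21, which links the translocase to other complexes, had -0.30. The control libraries of Timm21 differed widely, at 56 and 42 counts against 60 and 72 after depletion.

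The paralogues Timm17a and Timm17b encode alternative partners of Timm23. Timm17a had 110 ± 3.24 CPM (SD, n = 2) before and 96.7 ± 10.4 CPM after depletion, a log2FC of -0.18 (edgeR adjusted p 0.252). Timm17b had 8.11 and 6.28 CPM against 8.23 and 7.83 CPM, which overlapped, and a log2FC of 0.17 (adjusted p 0.806 in edgeR). The difference in log2FC, Timm17a less Timm17b, was -0.35 with an SE of 0.26. Per kb of gene, Timm17a stood 7.40 times above Timm17b in the controls. In the TIM22 translocase, the pore gene Timm22 had a log2FC of 0.04 and Timm29, another subunit, had -0.12, with intervals from -0.33 to 0.41 and from -0.32 to 0.07.

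No import motor gene of the set passed the test. Hspa9, the mitochondrial Hsp70, had 257 ± 20.1 CPM (SD, n = 2) before and 252 ± 6.61 CPM after depletion, a log2FC of -0.03 (95% interval -0.15 to 0.10). Timm44, which tethers it to the channel, had 63.4 and 61.1 CPM in the controls and 61.5 and 63.2 CPM after depletion. The nucleotide exchange factors Grpel1 and Grpel2 had log2FCs of 0.02 and -0.11, and the J-protein-related genes Pam16 and Dnajc19 had 0.03 and -0.26. Summed over the 6 motor genes, the level was 502 and 465 CPM in the controls and 469 and 480 CPM after depletion, so that the groups overlapped.

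In the matrix, Pmpca and Pmpcb encode the subunits of the peptidase that removes presequences, Mipep encodes a peptidase that trims some of the products further, and Oxa1l inserts proteins into the inner membrane. Mipep gave 243 and 288 control counts against 544 and 523 after depletion, or 73.0 and 78.6 CPM against 91.4 and 93.1 CPM. Both depletion libraries lay above both controls, and the log2FC of 0.28 (SE 0.08) had an edgeR adjusted p of 0.0676. Oxa1l gave 182 and 207 control counts against 273 and 275 after depletion, a log2FC of -0.23 (edgeR adjusted p 0.245). Pmpca and Pmpcb had -0.03 and -0.17, with intervals that spanned 0.

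Over the 40 genes the median log2FC was -0.06, against -0.002 over all genes tested, and 23 of 40 lay below 0, against 50.6% of all genes. With an offset for gene length the medians were -0.036 and -0.030, a difference of -0.0056 in place of -0.057. Without Timm10 and Tomm22 the median was -0.04 and 21 of 38 lay below 0. The depletion libraries both lay below the controls in 14 of the 40 genes, against 22.9% of all genes tested, and above them in 4, against 23.4%. The median rested on single libraries, at -0.01 without control replicate 1, -0.02 without depletion replicate 1 and -0.11 without control replicate 2.

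The scaling of the libraries bears on these small values. TMM left the median of all genes close to 0. With size factors recovered from the authors' deposited mean signal, the median of all genes was -0.11 and that of the import genes -0.16, so that both shifted together, and 33 of the 40 import genes lay below 0 in place of 23. Under these factors edgeR also called Chchd4 (adjusted p 0.00647), Tomm40 (0.0136), Timm17a (0.0290) and Oxa1l (0.0478) lower, in addition to Timm10 and Tomm22, while no import gene was called higher. The share of all genes called lower was then 5.89% in place of 1.40%, and the share called higher 0.413%.

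Length and level varied widely within the set. Import genes ran from 1.41 kb for Timm8b to 121 kb for Mipep, with a median of 9.21 kb against 22.2 kb for all genes tested. Both lowered genes were short, Timm10 at 3.22 kb and Tomm22 at 2.54 kb. The 11 import genes shorter than 5 kb had a median log2FC of -0.21 and the other 29 had -0.03. Over all genes tested the medians were -0.07 for 1428 genes shorter than 5 kb and 0.004 for 10416 longer ones, and the part of length in these values was not tested. With an offset for a trend on gene length, Timm10 and Tomm22 had log2FCs of -1.83 and -1.31 and were both called in edgeR.

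Per kb of gene, the control level had a median of 4.46 CPM over the import genes, against 1.52 CPM over all genes tested. The densest genes were Timm29 at 21.9 ± 1.68, Tomm20 at 16.8 ± 0.638, Tomm40 at 15.4 ± 0.180 and Hspa9 at 15.2 ± 1.19 CPM per kb (SD, n = 2), of which Tomm40 and Hspa9 differed by less than their spread. Dnajc19 was the sparsest at 0.470 ± 0.0240 CPM per kb. Lengths were those of the annotated genes, whereas the authors counted reads over transcripts. A density may therefore be too low where the counted transcript was shorter, and ratios per kb between paralogues share this limit. On this scale Timm10 went from 5.03 to 1.37 CPM per kb and Tomm22 from 3.42 to 1.33 CPM per kb. The table gives 1 count per gene, so that polymerase near the start and in the gene body cannot be told apart.

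**Figure D4:**
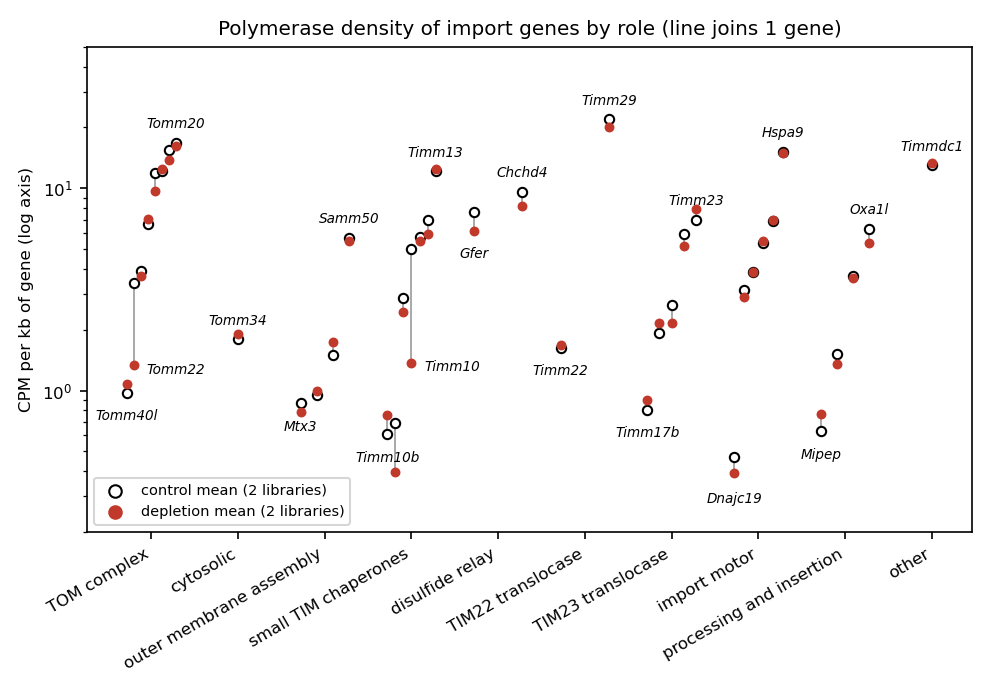
Mean level of each import gene per kb of annotated gene (log axis), by role, in the control (open) and depletion (red) libraries, with a line joining both values of 1 gene. The vertical drops of Timm10 from 5.03 to 1.37 and of Tomm22 from 3.42 to 1.33 CPM per kb are the longest lines, and the densest gene, Timm29, lies at 21.9 CPM per kb in the controls.

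Neither Timm10 nor Tomm22 had another gene starting within 500 bases on the opposite strand, an arrangement seen in 13 of the 40 import genes. None of the facing genes that were tested was called, and the lowest of them, Arfip2 opposite Timm10b, had a log2FC of -0.44 (adjusted p 0.387 in edgeR).

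A list of partner genes held 34 other genes of the pathway that the naming rule of the set left out. Among them were Agk, Romo1, Dnajc15, Immp1l and Immp2l, beside matrix chaperones, inner membrane proteases, cristae-organising MICOS subunits and porins. Of the 34 genes, 33 were in the table and 32 were tested. In edgeR 1 was called higher and 0 were called lower, while DESeq2 and limma-voom called none lower. At an unadjusted p under 0.05, 4 of the 32 were lower and 1 was higher, beside the 7.66% and 8.53% of all genes given above. The median log2FC was -0.03. The called gene was Chchd3, a MICOS subunit, which gave 1229 and 1416 control counts against 2581 and 2483 after depletion. It rose from 378 ± 12.1 to 438 ± 5.89 CPM (SD, n = 2), a log2FC of 0.21 (SE 0.05, edgeR adjusted p 0.0236). The call of Chchd3 was lost in DESeq2, under library totals, recovered factors or the length offset, and without control replicate 1 or either depletion replicate. Over the 32 genes the log2FC ran from -0.57 to 0.37.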

How the data were processed

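PRO-seq was performed on 2 control and 2 depletion libraries of AID-Zfp574 mES cells, grouped by their labelled titles. The authors trimmed adapters (cutadapt 1.18 in the submitters' processing notes), mapped reads uniquely to mm10 with Bowtie 1.2.2 and collapsed them by molecular identifier. They deposited whole-number counts per gene. Reads were counted by strand over the whole length of the transcript nearest to each start site, with start sites corrected by CAGE data. The authors' second table held a DESeq2 comparison, of which the fold changes and p-values were not used. Its mean normalized signal, as deposited, gave size factors of 0.699, 0.740, 1.32 and 1.24 for control replicates 1 and 2 and depletion replicates 1 and 2. The methods describe spike-in scaling with 1 factor per condition, and how these factors were made was not resolved.

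Counts were filtered with filterByExpr at its defaults (11853 of 12486 genes kept), scaled by TMM and tested with edgeR 4.0.16 in R 4.3.3 (quasi-likelihood, two-sided, condition only, Benjamini-Hochberg over all genes tested, threshold 0.05). DESeq2 1.42.0, limma-voom (limma 3.58.1), 3 other scalings, 2 other filters, a length offset, a replicate block and leaving out each library were alternatives. Scripts were tested on simulated data. Replicates differed by more than sampling noise (chi-square per degree of freedom 1.85 and 1.49) and were kept apart. Depth was 3298864 to 6045216 counts, and intervals cover only the spread between these libraries. Gene positions came from GENCODE M21 and promoters from RefSeq (GRCm38.p6, 35 of 40 symbols matched), without the authors' corrected starts. Members and lists were chosen with earlier results of these data known. Genes chosen to be named with values were those called, Timm10 and Tomm22, the 5 lowest and 5 highest fold changes, and the highest and lowest mean CPM. Not every kind of value is printed for each of them. Other members were added for their roles, and Chchd3 as a called partner gene.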

Additional observations from a re-analysis of the deposited data

How the results depend on the processing

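Among 13 alternatives, Timm10 was called lower by at least 2-fold in each that tested it. With a mean count of at least 100, neither Timm10 nor Tomm22 was tested, and 0 import genes were called lower, with or without the fold threshold. DESeq2 called 1 import gene lower, Timm10, also at 2-fold. With the recovered size factors 6 import genes were lower, the median of the import genes was -0.16, and 4 partner genes were called lower. The number of partner genes called higher was 0 with library totals, the recovered factors, the length offset and DESeq2, against 1 with TMM. Over all genes, 698 were lower and 49 higher with the recovered factors, against 166 and 132 with TMM.

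In fits without one of the libraries, the lone library of a group is assumed to vary like the others. The median of the import genes in these fits ranged from -0.11 to -0.011.

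Equal replicate numbers were not taken as pairs (their deviations from the group means correlated at 0.03 between conditions). A fit with the replicate block called 3 import genes lower, Timm10, Tomm22 and Chchd4, and 1 higher, Mipep at a log2 fold change of 0.28, while Timm10 and Tomm22 had -1.87 and -1.35. Under the block 2.53% of all genes were called lower and 3.09% higher.

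Of the 40 genes, 21 kept their sign in every alternative that tested them, and 29 in those that kept all libraries. With library totals Grpel1 (-0.014) and Timm44 (-0.032) changed sign, with a mean count of at least 100 Timm44 (-0.013), and with the length offset Pmpca (0.0032). With the recovered factors, by the shift they give all genes, Timm13 (-0.049), Timm22 (-0.066), Timmdc1 (-0.067), Pam16 (-0.069), Tomm70a (-0.014), Tomm6 (-0.063), Tomm34 (-0.029), Mtx2 (-0.041), Grpel1 (-0.084) and Timm44 (-0.10) changed sign. Leaving out one library changed the sign of further values, with ranges from -0.033 to 0.075 for Grpel1, -0.11 to 0.054 for Hspa9, -0.022 to 0.16 for Mtx2, -0.35 to 0.042 for Mtx3, -0.023 to 0.090 for Pam16, -0.12 to 0.063 for Pmpca, -0.15 to 0.030 for Samm50, -0.013 to 0.70 for Timm10b, -0.17 to 0.29 for Timm13, -0.014 to 0.36 for Timm17b, -0.10 to 0.17 for Timm22, -0.025 to 0.029 for Timm44, -0.17 to 0.023 for Timm8a1, -0.024 to 0.097 for Timmdc1, -0.0043 to 0.17 for Tomm34, -0.017 to 0.32 for Tomm40l, -0.088 to 0.17 for Tomm6 and -0.27 to 0.087 for Tomm7. None of these genes was called in any of these fits. For calls lost in DESeq2 the cause was not tested.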
